A study of Mus musculus with 13 samples.

Results

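Rasd1 and 9 further genes known to respond to glucocorticoids were examined in aortic RNA from 13 mice. The 10 genes were taken by name from a count table of 54532 genes, and all 10 were among the 15811 genes with enough counts to be tested. Rasd1 was selected on its values in these same aortas, because it was lower in every aorta labelled Ad-FAM3A than in any Ad-sham aorta. Its difference between the groups is therefore given as a description, without a test. The question was whether Fkbp5, Per1, Tsc22d3, Sgk1, Zbtb16, Klf9, Ddit4, Nr3c1 and Mt2 followed it.

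The mice carried an ApoE knockout, were 10 weeks old when a pump was implanted, and received angiotensin II (AngII) at 1000 ng/kg/min for 28 days, which gives a murine model of abdominal aortic aneurysm. Each was given 5 tail vein injections of adenovirus. The control virus (Ad-sham, 6 aortas) was an empty vector, and the other virus (Ad-FAM3A, 7 aortas) was made to express FLAG-tagged mouse Fam3a from the EF1A promoter, which drives expression in most cell types. Both groups shared the knockout, the AngII infusion and the virus injections, and no aorta without them was analysed here. Each aorta gave 1 library.

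Glucocorticoids such as corticosterone in mice, or the drug dexamethasone, bind the glucocorticoid receptor, the product of Nr3c1. The receptor is held in the cytoplasm by chaperones, moves to the nucleus on binding its ligand, and raises or lowers the transcription of many genes, often from sites far from the start of the gene. In vessels these hormones act on smooth muscle tone and on inflammation. Rasd1 encodes a small Ras-like GTPase that was found as a transcript induced by dexamethasone. Fkbp5 encodes a co-chaperone that lowers the affinity of the receptor for its hormone, and its induction closes a feedback loop. Zbtb16 and Klf9 encode zinc finger transcription factors, Tsc22d3 encodes the anti-inflammatory protein GILZ, Sgk1 a kinase that regulates ion transport, Per1 a repressor of the circadian clock, Ddit4 an inhibitor of mTORC1 signalling, and Mt2 a metallothionein that binds zinc and copper.

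Promoter sequences were available for 7 of the 10 genes, in 15 windows from RefSeq on build GRCm38.p6. The 250 bases before a start site are shown for a window of each of 4 genes, in the sense of the gene. Each of these windows holds a glucocorticoid receptor site, an E-box or a metal response core. Other windows with a match, of Sgk1, Tsc22d3, Ddit4 and Per1, are not shown. Capitals mark matches, on either strand, to the receptor half-site (AGAACA, or TGTTCT on the other strand), to the E-box CACGTG bound by clock factors and other proteins, or to the core of the metal response element (TGCACNC or TGCGCNC, on either strand). In the Sgk1 window an E-box and a half-site overlap within the first run of capitals, and the second run is a full site made of a half-site, 3 free bases and the half-site in reverse.
Sgk1 (chr10:21993640-21993889, + strand): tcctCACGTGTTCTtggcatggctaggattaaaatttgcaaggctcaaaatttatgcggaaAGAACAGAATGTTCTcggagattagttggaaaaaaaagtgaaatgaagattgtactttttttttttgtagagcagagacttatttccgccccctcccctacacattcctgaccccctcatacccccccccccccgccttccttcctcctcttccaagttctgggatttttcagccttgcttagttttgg
Per1 (chr11:69098699-69098948, + strand): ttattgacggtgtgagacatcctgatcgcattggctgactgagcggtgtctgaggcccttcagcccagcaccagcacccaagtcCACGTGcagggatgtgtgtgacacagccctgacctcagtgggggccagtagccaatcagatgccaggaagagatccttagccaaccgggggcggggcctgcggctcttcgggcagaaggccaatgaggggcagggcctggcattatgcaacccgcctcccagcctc
Fkbp5 (chr17:28486150-28486399, - strand): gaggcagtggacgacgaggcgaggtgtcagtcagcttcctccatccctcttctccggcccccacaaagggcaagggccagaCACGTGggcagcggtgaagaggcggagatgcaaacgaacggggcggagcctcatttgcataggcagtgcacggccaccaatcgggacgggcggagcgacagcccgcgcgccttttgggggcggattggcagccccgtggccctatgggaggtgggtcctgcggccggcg
Mt2 (chr8:94172368-94172617, + strand): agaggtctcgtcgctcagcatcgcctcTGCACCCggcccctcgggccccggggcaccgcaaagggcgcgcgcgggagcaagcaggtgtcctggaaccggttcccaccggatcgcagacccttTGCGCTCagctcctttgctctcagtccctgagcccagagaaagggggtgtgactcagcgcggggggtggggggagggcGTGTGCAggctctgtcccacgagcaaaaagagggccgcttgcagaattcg
The full receptor site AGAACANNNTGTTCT occurred in 1 of the 15 windows of these genes, that of Sgk1, and in 3 of all 32851 windows of the same length (0.00913%). The half-site was in 4 of the 15 windows, from Sgk1 and Tsc22d3, and in 16.1% of all windows. The E-box was in 3 of 15 and in 6.02% of all windows, the metal response core in 3 of 15 and in 21.4%, and the cAMP response element TGACGTCA in 0 of 15 and in 1.55%. The Mt2 window ends at 94172617, at the RefSeq start of the gene, whereas Mt2 begins at 94172664 in the count table. The annotated transcripts used here did not hold the bases just after that RefSeq start. A match describes these letters only, and other starts of the same gene may be the ones used in the aorta.

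The depth and the labels were examined first. Total counts on genes ranged from 15588507 to 19797407 in Ad-sham and from 14481179 to 16576977 in Ad-FAM3A aortas, so that a count of 0 allowed at most 0.152 to 0.207 CPM (the count scaled to a fixed library size, by the TMM method for single genes), for counting error only. The Fam3a transcript did not rise with the label, with medians of 24.9 CPM in Ad-sham and 23.0 CPM in Ad-FAM3A and a log2 fold change of -0.03, and each direction below refers to the labels. The summed level of 7 smooth muscle markers was 2681 to 11839 CPM in Ad-sham and 2364 to 17116 CPM in Ad-FAM3A, and fat, nerve and B cell markers were also present in every aorta. Markers of the adrenal cortex, the gland that makes corticosterone, summed to 5.05 to 8.37 CPM, and its steroid enzymes Cyp11b1 and Cyp11b2 had at most 5 counts and 1 count in an aorta. Another pair, Hsd3b1 and Cyp11a1, had 26 and 16 counts in Ad-FAM3A7 and at most 2 and 5 in any other aorta. Hormone levels and the time of day of sampling were not analysed here. In these bulk samples, fewer cells of a type and less RNA per cell cannot be told apart.

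Rasd1 (ENSMUSG00000049892, chromosome 11, 59963181 to 59964944, minus strand) was at 24.5, 40.8 and 71.2 CPM in the lowest, the median and the highest Ad-sham aorta. In Ad-FAM3A aortas these values were 7.31, 17.0 and 24.2 CPM. The log2 fold change of Ad-FAM3A over Ad-sham (log2FC) was -1.43, with a standard error (SE) of 0.29. As a mean per group the authors give 26.5 FPKM for Ad-sham and 9.98 for Ad-FAM3A. The groups came close to each other at the edge of the rule, where Ad-sham1 lay at 24.5 and Ad-FAM3A6 at 24.2 CPM. With library totals in place of TMM the order of these 2 aortas turned, with 23.1 CPM in Ad-sham1 and 26.4 CPM in Ad-FAM3A6, so that the groups overlapped. Over all genes tested, 9 (0.0569%) had every Ad-FAM3A aorta below every Ad-sham aorta, Rasd1 among them, and the other 9 members contributed 0.

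**Figure D1:**
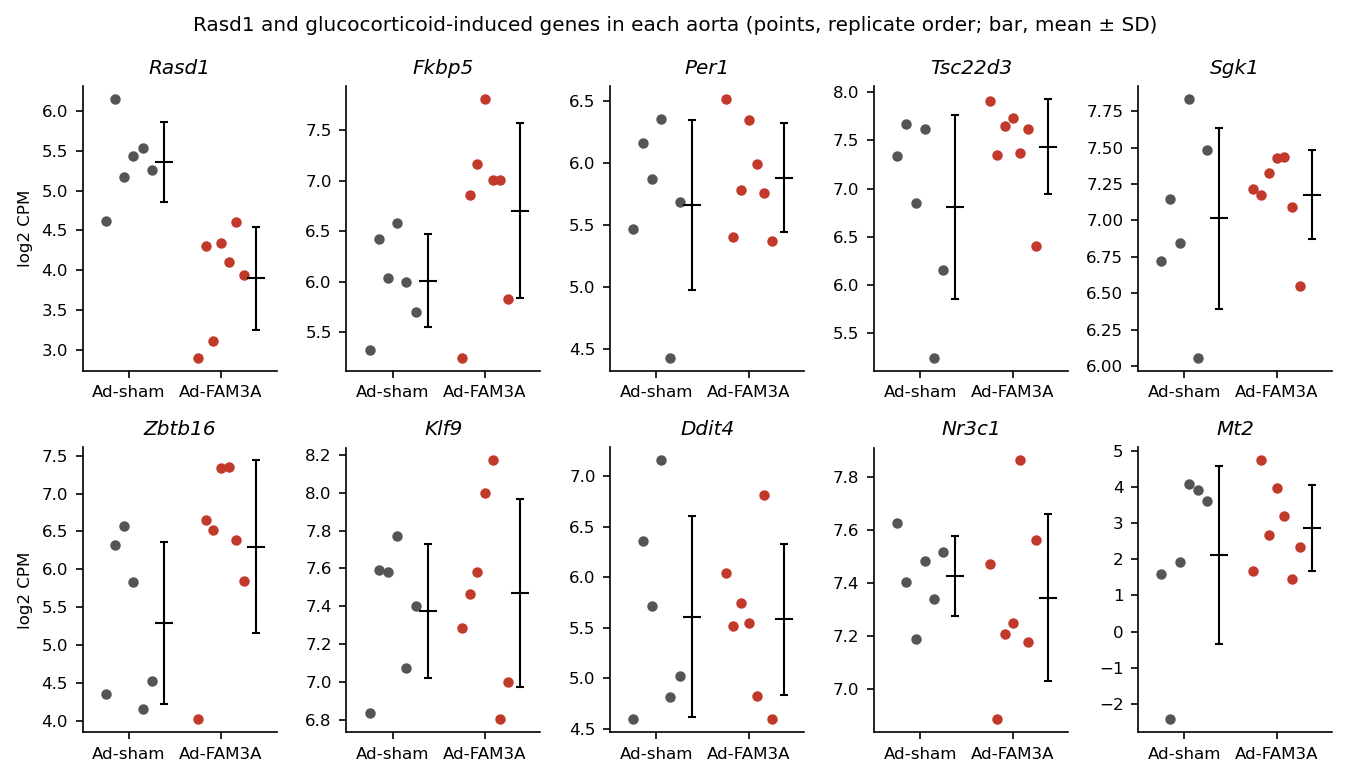
Level of each of the 10 genes in each aorta, as log2 CPM on the vertical axis of each panel, with Ad-sham in grey and Ad-FAM3A in red. Points are aortas in the order of their replicate numbers, and the bar beside them is the mean ± SD. Only in the Rasd1 panel do the groups not overlap under TMM, and 1 Ad-sham aorta lies far below the others for Mt2.

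None of the other 9 genes fell with Rasd1 by the test across all genes. At an adjusted p under 0.05 (edgeR's quasi-likelihood test, adjusted by the Benjamini-Hochberg method) 0 of the 9 were called, as was 0% of the 15811 genes tested, where the smallest adjusted p was 0.810. At an unadjusted p under 0.05 there was 1 of the 9, Fkbp5, against 5.91% of all genes tested (934 genes). With DESeq2, 3 of all genes were called, 0 of them among these 9 and 1 of them Rasd1, from whose call nothing is read because it was chosen for this difference, and with limma-voom 0. The estimates of 7 genes were above 0 and those of 2 were below, with a median log2FC of 0.16 and a range from -0.16 to 0.98. The median over all genes tested was 0.00.

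Fkbp5 (ENSMUSG00000024222, chromosome 17, 28399094 to 28517527), the feedback regulator of the receptor, had 39.9, 64.7 and 95.7 CPM in the lowest, median and highest Ad-sham aorta. The same values in Ad-FAM3A were 37.8, 129 and 224 CPM. Thus 5 of 7 Ad-FAM3A aortas lay above all Ad-sham aortas, whereas Ad-FAM3A1 lay below them all and Ad-FAM3A7 was at 56.9 CPM, within their range. The log2FC was 0.83 (SE 0.35), opposite in sign to that of Rasd1 (edgeR's quasi-likelihood test, adjusted p = 0.810). The two-sided exact permutation test on log2 CPM gave p = 0.110.

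Zbtb16 (ENSMUSG00000066687, chromosome 9, 48654297 to 48836222), the transcription factor also called PLZF, had 17.8, 40.0 and 95.0 CPM in the lowest, median and highest Ad-sham aorta. In Ad-FAM3A these values were 16.1, 91.6 and 162 CPM. The Ad-sham aortas formed a low set of 3 at 17.8 to 23.1 CPM and a higher set of 3 at 56.9 to 95.0 CPM, and 6 of 7 Ad-FAM3A aortas lay above the Ad-sham median. The log2FC was 0.98 (SE 0.51, edgeR's quasi-likelihood test, adjusted p = 0.810). The lowest Ad-FAM3A aorta was again Ad-FAM3A1.

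Tsc22d3 (ENSMUSG00000031431, chromosome X, 140539528 to 140600659), the gene of GILZ, had 37.6, 138 and 203 CPM in the lowest, median and highest Ad-sham aorta, and 84.4, 196 and 241 CPM in Ad-FAM3A. Of the 7 Ad-FAM3A aortas 6 lay above the Ad-sham median, and Ad-FAM3A7 lay below it. The log2FC was 0.47 (SE 0.35, edgeR's quasi-likelihood test, adjusted p = 0.819), and it was 0.28 without Ad-sham5. Ad-FAM3A1, the lowest aorta for Rasd1, Fkbp5 and Zbtb16, was the highest of all 13 for Tsc22d3 and for Per1.

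The kinase gene Sgk1 (ENSMUSG00000019970, chromosome 10, 21882184 to 21999903) had 66.4, 128 and 228 CPM in the lowest, median and highest Ad-sham aorta and 93.4, 149 and 173 CPM in Ad-FAM3A. All Ad-FAM3A aortas lay within the range of the Ad-sham aortas. Its log2FC was 0.08 (SE 0.24). The clock gene Per1 (ENSMUSG00000020893, chromosome 11, 69095217 to 69109960) had medians of 54.9 and 55.0 CPM in Ad-sham and Ad-FAM3A and a log2FC of 0.16 (SE 0.28). The ranges, 21.5 to 82.0 and 41.4 to 91.5 CPM, overlapped over most of their width.

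Klf9 (ENSMUSG00000033863, chromosome 19, 23141226 to 23166911) had medians of 180 CPM in Ad-sham and 177 CPM in Ad-FAM3A, and its log2FC was 0.13 (SE 0.23). Ddit4 (ENSMUSG00000020108, chromosome 10, 59949669 to 59951834) had medians of 42.3 and 46.7 CPM, and its log2FC was -0.16 (SE 0.44). The highest Ddit4 values were those of Ad-sham4 (142 CPM) and Ad-FAM3A6 (112 CPM), each apart from the rest of its group. Without Ad-sham4 the log2FC of Ddit4 was 0.30, with the opposite sign. For these genes and for Sgk1 and Per1, the adjusted p was 0.904 or more by edgeR's quasi-likelihood test, and differences of the size of these errors were not detectable. Klf9 moved with tissue markers within the groups, with an r of 0.77 with the log2 sum of the smooth muscle markers and of -0.79 with that of the B cell markers. With the smooth muscle score as a covariate its log2FC was -0.05.

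Nr3c1 (ENSMUSG00000024431, chromosome 18, 39410545 to 39491301), the gene of the receptor itself, was the steadiest of the 10. It had 146, 174 and 197 CPM in the lowest, median and highest Ad-sham aorta and 118, 152 and 233 CPM in Ad-FAM3A. The log2FC was -0.06 (SE 0.15, edgeR's quasi-likelihood test, adjusted p = 0.942). Its residual SD within groups was 0.25 on the log2 scale, lower than in most genes, with 14.8% of the genes tested below it.

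Mt2 (ENSMUSG00000031762, chromosome 8, 94172664 to 94173568) was the most variable member, with a residual SD of 1.89 on the log2 scale, above that of 97.5% of the genes tested. It had 0.0606, 7.94 and 16.9 CPM in the lowest, median and highest Ad-sham aorta and 2.63, 6.28 and 26.7 CPM in Ad-FAM3A. The lowest value, in Ad-sham2, rested on 1 count. In that same aorta Mt1, the neighbouring metallothionein gene, had 3952 counts, and over all aortas Mt1 ranged from 126 to 431 CPM. The log2FC of Mt2 was 0.20 (SE 0.78, edgeR's quasi-likelihood test, adjusted p = 0.959), and it was -0.06 without Ad-sham2 and 0.86 with limma-voom. An antisense gene, Gm45774, overlaps Mt2 and had 152 counts over all aortas against 1957 for Mt2. How reads of overlapping or closely related genes were divided is not given in the sources used here, and the values of Mt2 and Mt1 are uncertain to that extent.

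**Figure D2:**
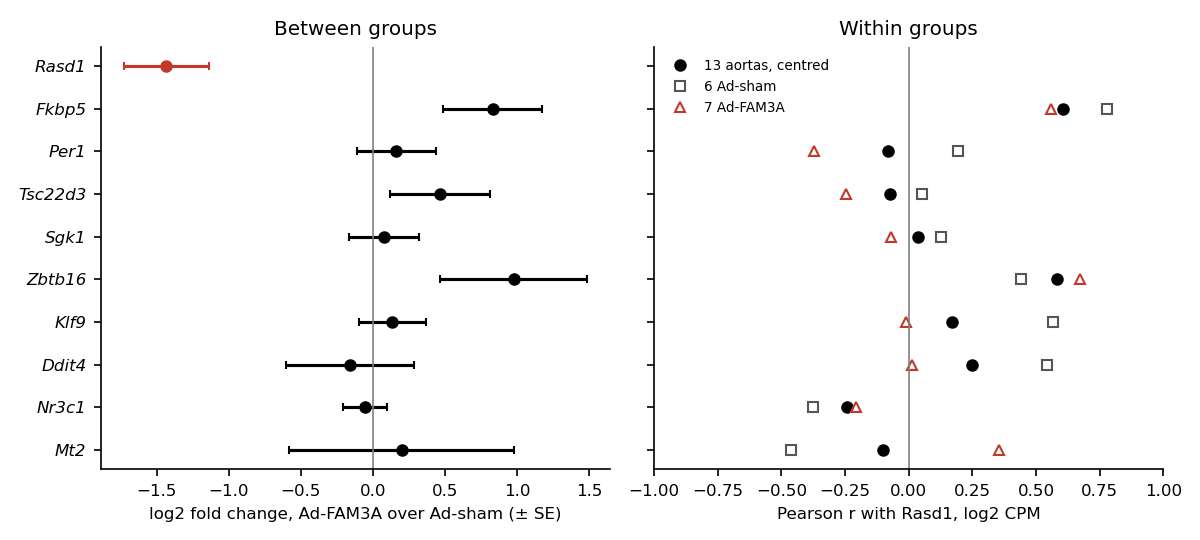
Left, log2FC of each gene (Ad-FAM3A over Ad-sham) ± SE, with Rasd1, which was chosen for this difference, in red. Right, Pearson r of each gene with Rasd1 over 13 aortas after centring on group means (filled circles) and within the 6 Ad-sham (squares) and 7 Ad-FAM3A aortas (triangles). Fkbp5 and Zbtb16 have the 2 highest estimates on the left, opposite to Rasd1, and the 2 highest centred r on the right.

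Compared per length, the 10 genes fell within about an order of magnitude. The mean over 13 aortas was highest for Klf9 (54.9 ± 16.2 CPM per kb, SD), followed by Tsc22d3 (36.3), Ddit4 (32.3), Sgk1 (29.3), Nr3c1 (22.8), Rasd1 (17.8), Mt2 (15.6), Zbtb16 (14.1), Per1 (10.4) and Fkbp5 (10.1 ± 5.57 CPM per kb, SD). The order differed between the groups. Rasd1 was the fifth of the 10 in Ad-sham (26.9 CPM per kb) and the lowest in Ad-FAM3A (9.94), while Fkbp5 was the lowest in Ad-sham (7.08) and above Per1 and Rasd1 in Ad-FAM3A (12.6). Neighbours in the overall order were not separated in every aorta. Klf9 exceeded Tsc22d3 in 10 of 13 aortas, Rasd1 exceeded Mt2 in 7, and Ddit4 exceeded Sgk1 in 6.

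Whether the genes followed Rasd1 from aorta to aorta was then examined within the groups, since the selection of Rasd1 used only its difference between them. Each gene's log2 CPM was centred on its group mean, and the centred values were correlated over the 13 aortas. No gene tested was called at an adjusted p under 0.05 for a slope on Rasd1 in edgeR's quasi-likelihood test (0 of 15810 genes, 0%, smallest adjusted p = 0.349), and 0 of the 9 members were called. A positive slope with an unadjusted p under 0.05 was found for 1 of the 9, Fkbp5, against 2.57% of all genes (407 genes, beside 493 with a negative slope). DESeq2 called 4 slopes, none of a member, and limma-voom 0. The median r of the 9 members was 0.04, beside 0.01 over all genes tested, and 5 of the 9 were above 0.

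Fkbp5 came closest to Rasd1 within the groups, with a Pearson r of 0.61 (n = 13, permutation p = 0.0436) and a Spearman rho of 0.52 (permutation p = 0.0867). Its slope had an adjusted p of 0.796 by edgeR's quasi-likelihood test. In the 6 Ad-sham aortas r was 0.78 (exact permutation p = 0.0736) and in the 7 Ad-FAM3A aortas 0.56 (exact permutation p = 0.157). Of all genes tested, 1.68% had a higher r with Rasd1. Leaving out Ad-FAM3A1 and Ad-FAM3A3, the 2 aortas farthest from the median in centred Rasd1, gave an r of 0.62, but without Ad-FAM3A1 alone it was 0.38 and without Ad-FAM3A3 alone 0.79. Both aortas held markers of other tissues. Ad-FAM3A1 had the highest sum of liver markers, 365 CPM against at most 92.0 CPM in the others, and Ad-FAM3A3 had 347 CPM of kidney markers, exceeded in Ad-sham6 (638 CPM). Their part in these values was not tested.

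Zbtb16 followed with an r of 0.58 (n = 13, permutation p = 0.0465) and a rho of 0.43 (permutation p = 0.153), and its slope had an adjusted p of 0.796 by edgeR's quasi-likelihood test. The r was 0.44 in the Ad-sham and 0.67 in the Ad-FAM3A aortas (exact permutation p = 0.444 and 0.0895). It dropped to 0.39 without the 2 farthest aortas and to 0.35 without Ad-FAM3A1 alone, so that the relation rested in part on that aorta. The 9 permutation p-values belong to 1 family of 9 comparisons, and neither Fkbp5 nor Zbtb16 passed the adjustment over all genes.

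The other 7 genes had r between -0.24 and 0.25 with Rasd1, with permutation p from 0.408 to 0.895 over the 13 aortas. Ddit4 had the highest of these, at 0.25, which became 0.64 without the 2 farthest aortas, 0.44 without Ad-FAM3A1 alone and 0.07 without Ad-FAM3A6. Klf9 was at 0.17 and Sgk1 at 0.04. Tsc22d3 (-0.07), Per1 (-0.08), Mt2 (-0.10) and Nr3c1 (-0.24) were below 0. Tsc22d3 and Per1 came to 0.19 and 0.21 without the 2 farthest aortas, and Mt2 came to 0.47 without Ad-sham2, the aorta with 1 Mt2 count.

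**Figure D3:**
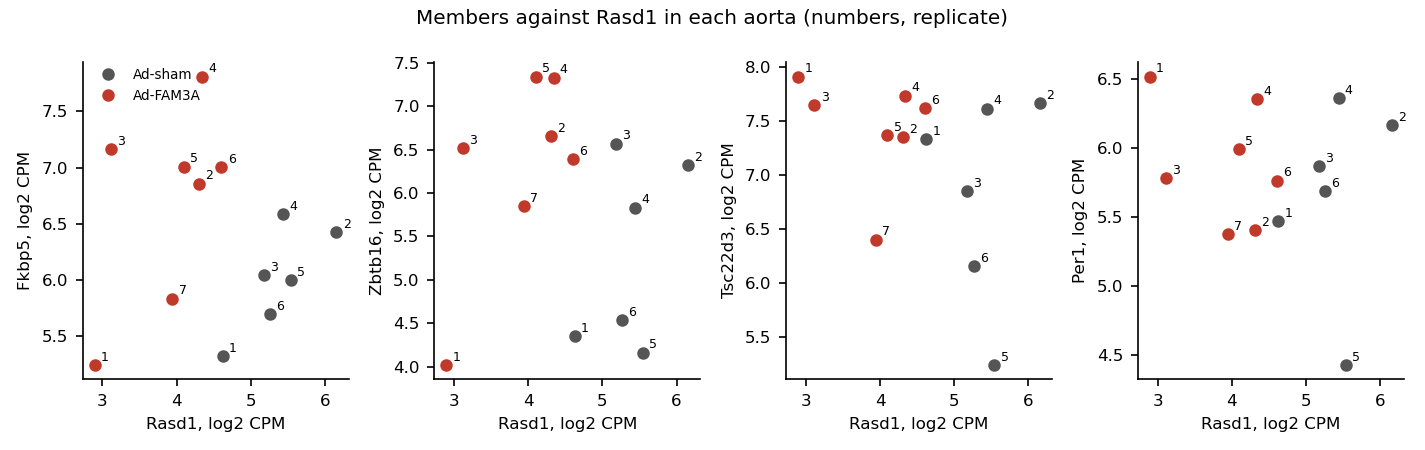
Fkbp5, Zbtb16, Tsc22d3 and Per1 (vertical axes, log2 CPM) against Rasd1 (horizontal axis, log2 CPM), 1 point per aorta with its replicate number, Ad-sham in grey and Ad-FAM3A in red. The grey Fkbp5 points run upward with Rasd1, and the red cloud lies to the left of the grey one. Among the red points the upward run is not plain apart from Ad-FAM3A1, the lowest in both genes. Ad-FAM3A3, the next lowest in Rasd1 (3.11), lies high in Fkbp5 (7.16). Ad-FAM3A1 sits at the lower left for Fkbp5 and Zbtb16 and at the upper left for Tsc22d3 and Per1.

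Markers of nerve had a negative r with most of these genes within the groups, but not with all. The centred log2 sum of 6 sympathetic neuron markers, which ranged from 52.8 to 1385 CPM in Ad-sham and from 91.3 to 1190 CPM in Ad-FAM3A, had an r of -0.53 with Rasd1, -0.37 with Fkbp5 and -0.44 with Zbtb16. For Per1, Tsc22d3, Sgk1 and Klf9 it was between -0.59 and -0.50, for Ddit4 -0.38 and for Nr3c1 -0.22, whereas for Mt2 it was 0.22. With the score of this list as a covariate, an alternative added after the data were seen, the r of Fkbp5 with Rasd1 was 0.50 and that of Zbtb16 was 0.46. Several others moved further under this covariate, Per1 from -0.08 to -0.49, Tsc22d3 from -0.07 to -0.43, Sgk1 from 0.04 to -0.39, Nr3c1 from -0.24 to -0.40, Klf9 from 0.17 to -0.14 and Ddit4 from 0.25 to 0.05. Mt2 stayed at -0.10. The sum of 4 Schwann cell markers had an r of -0.50 with Rasd1, -0.50 with Fkbp5 and -0.61 with Zbtb16, but 0.02 with Nr3c1 and -0.01 with Mt2. That of the fibroblast markers had an r of -0.43 with Rasd1, -0.42 with Zbtb16 and -0.14 with Fkbp5. The part of the Schwann cell and fibroblast lists in the relation was not tested. The sum of the 7 adrenal cortex markers was low in every aorta. Only 2 of the 7 had a count in every aorta, Star (50 to 110 counts) and Mc2r (5 to 48 counts). These 2 genes made up most of the sum. The sum had an r of -0.67 with Per1, -0.59 with Tsc22d3 and Klf9, -0.53 with Sgk1 and -0.50 with Ddit4. With Rasd1 it was 0.02, with Fkbp5 -0.20 and with Zbtb16 -0.11. These r values describe mainly Star and Mc2r, and whether they reflect adrenal tissue was not tested. With the adipocyte and the smooth muscle scores as covariates, the r of Fkbp5 with Rasd1 was 0.64 and 0.60.

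**Figure D4:**
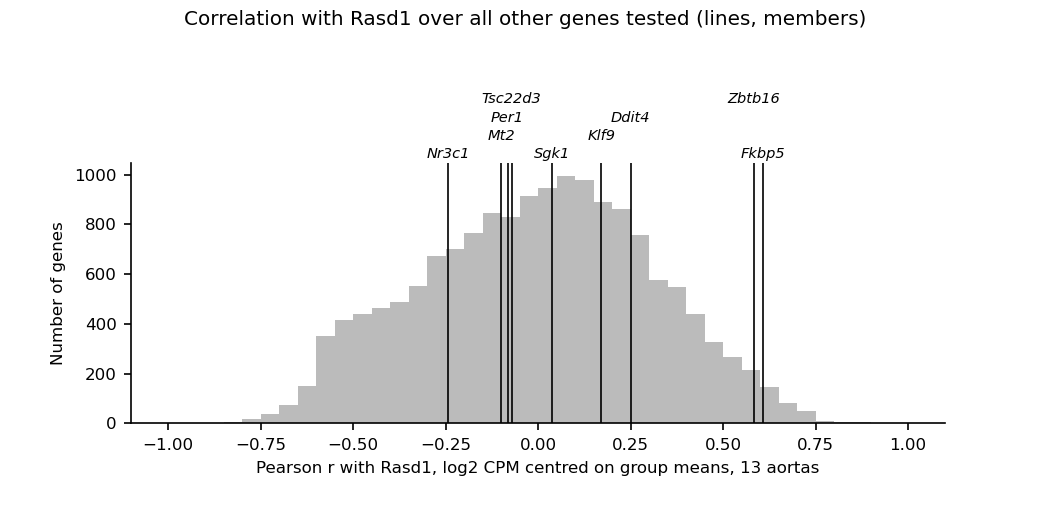
Number of genes (vertical axis) by Pearson r with Rasd1 (horizontal axis, centred log2 CPM, 13 aortas) over the 15810 other genes tested, with the 9 members as vertical lines. Fkbp5 and Zbtb16 stand in the right tail, at 0.61 and 0.58, and the other 7 lie between -0.24 and 0.25 in the body of the distribution.

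Among the members themselves, 45 pairs were compared as a description, over the same 13 aortas and centred on group means. Of these, 32 had an r above 0 and 13 an r above 0.5, with a median of 0.19, whereas each member's median r with all genes tested lay between -0.04 and 0.02. One set of high values joined Per1 with Tsc22d3 (0.82) and Sgk1 (0.79), Tsc22d3 with Sgk1 (0.66), and Ddit4 with Tsc22d3 (0.64), Per1 (0.60) and Sgk1 (0.55). Another joined Fkbp5 with Zbtb16 (0.81) and both with Rasd1. Klf9 had an r above 0.5 with Zbtb16 (0.64), Sgk1 (0.63), Fkbp5 (0.58) and Per1 (0.52), but these lay below the highest 5% of its r with all genes tested, which began at 0.69. The same limit lay between 0.39 (Per1) and 0.50 (Ddit4) for Rasd1 and the other members of the 2 sets. Ad-sham5 was the lowest of the 13 aortas in centred log2 CPM for Per1 (-1.23), Tsc22d3 (-1.57) and Sgk1 (-0.96). The pairs were not recomputed without it, so how far the first set rests on that aorta was not tested.

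Over the 13 aortas the pairs of Fkbp5 or Zbtb16 with Per1, Tsc22d3, Sgk1 or Ddit4 had lower values, from 0.15 (Fkbp5 with Per1) to 0.40 (Fkbp5 with Sgk1). For Fkbp5 and Zbtb16 the split into sets was not seen within Ad-sham, where these pairs ran from 0.31 to 0.90. Among them were 0.76 for Zbtb16 with Ddit4, 0.74 for Zbtb16 with Per1 and 0.62 for Zbtb16 with Tsc22d3. Rasd1 in Ad-sham had an r of 0.78 with Fkbp5 and 0.44 with Zbtb16. Its r there was 0.19 with Per1, 0.05 with Tsc22d3, 0.13 with Sgk1 and 0.54 with Ddit4. In Ad-FAM3A, Zbtb16 was at -0.26 with Ddit4, -0.28 with Per1, -0.10 with Tsc22d3 and 0.36 with Sgk1. Fkbp5 was there at 0.56 with Sgk1, 0.25 with Tsc22d3 and -0.04 with Per1. Both pairs with Sgk1 were at 0.41 in Ad-sham. Ddit4 in Ad-FAM3A was at 0.29 with Per1 and 0.26 with Sgk1, beside 0.70 with Tsc22d3. Per1 with Tsc22d3 and Fkbp5 with Zbtb16 had high r in each group, at 0.86 and 0.67 in Ad-sham and 0.74 and 0.91 in Ad-FAM3A. Fkbp5 with Ddit4 had 0.90 in Ad-sham and 0.09 in Ad-FAM3A. These differences between the groups were not tested. Over the 13 aortas neither Nr3c1 nor Mt2 had an r above 0.5 with any member. Within Ad-FAM3A, Mt2 had 0.61 with Klf9, 0.61 with Zbtb16 and 0.53 with Fkbp5, against -0.11, -0.50 and -0.16 in Ad-sham. All pairs share their libraries, and every member but Mt2 also had a negative r with the sympathetic neuron sum.

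**Figure D5:**
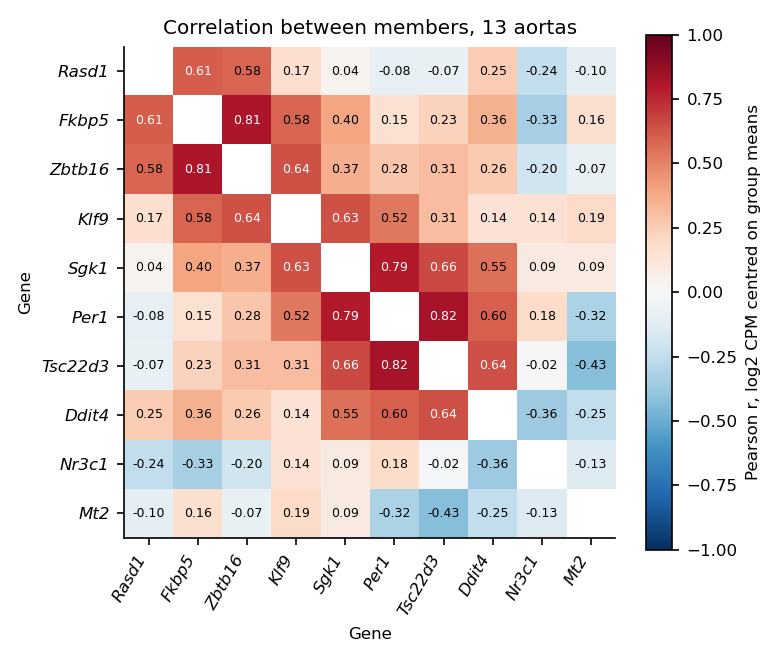
Pearson r between each pair of the 10 genes, on both axes, over 13 aortas after centring log2 CPM on group means; red is positive and blue negative. A block of Sgk1, Per1, Tsc22d3 and Ddit4 and a block of Rasd1, Fkbp5 and Zbtb16 hold values from 0.55 to 0.82, and Klf9 stands between them.

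A wider list of 36 other genes that glucocorticoids induce held 34 tested genes, of which 17 had estimates above 0 and 17 below, with a median log2FC of 0.01 beside 0.00 over all genes. None was called after adjustment. At an unadjusted p under 0.05, 1 was higher (Fam107a, an actin-associated protein, log2FC 0.89) and 4 were lower, beside 2.98% higher and 2.93% lower over all genes tested. These counts turned on single aortas. With 1 aorta left out, 0 to 3 were higher and 1 to 4 lower, and without Ad-sham3 or Ad-sham2 Glul alone was lower. The estimate of Fam107a was 0.53 without Ad-FAM3A4. The 4 lower genes over all aortas were Pck1, the rate-limiting enzyme of gluconeogenesis (-0.79), Glul, glutamine synthetase (-0.72), Zfp36, which promotes the decay of inflammatory mRNA (-0.63), and Angptl4, an inhibitor of lipoprotein lipase (-0.55).

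Pck1 and Glul were below the Ad-sham median in all 7 Ad-FAM3A aortas. Pck1 had 925, 1628 and 2640 CPM in the lowest, median and highest Ad-sham aorta and 472, 884 and 1624 CPM in Ad-FAM3A, so the groups overlapped. Both are also strongly expressed in fat, and the summed adipocyte markers were 3152 to 9467 CPM in Ad-sham and 1999 to 5933 CPM in Ad-FAM3A. With the adipocyte score as a covariate, which was applied to these listed genes only after their values were seen, the log2FC was -0.60 for Pck1 and -0.38 for Glul. That of Angptl4, whose r with the log2 adipocyte sum was 0.70 within the groups, was -0.34, and 0 of the 34 genes were then past an unadjusted p of 0.05. The estimates of Zfp36 and Fam107a, which had an r of 0.06 and -0.14 with that sum, were -0.60 and 0.65 in the same fit. Dusp1, a phosphatase gene that is a classical glucocorticoid target, had medians of 207 and 161 CPM and a log2FC of -0.40 (SE 0.32).

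Within the groups, 24 of the 34 genes had an r above 0 with Rasd1, with a median of 0.14, beside 51.2% of all genes tested. The highest was that of Arrdc2, an arrestin-domain gene, at 0.65, which was 1 of 34 with a positive slope at an unadjusted p under 0.05, beside 2.57% of all genes. Of 13 tested genes that glucocorticoids repress, such as cytokine and matrix protease genes, 2 had an r above 0 and 11 below, with a median of -0.27. The lowest was Nos2, the inducible nitric oxide synthase, at -0.52, and Mmp13 was the 1 gene of 13 with a negative slope at an unadjusted p under 0.05, beside 3.12% of all genes. Between the groups, 8 of these 13 had estimates above 0 and 5 below, and 0 were called.

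The genes that set the supply of active hormone and the state of the receptor were examined next. Of 18 tested genes for receptors, hormone metabolism, chaperones and cofactors, 9 had estimates above 0 and 9 below, and 0 were called after adjustment. At an unadjusted p under 0.05, 1 was lower (Hsd11b1) and 1 higher (Hsp90aa1), beside 2.93% lower and 2.98% higher over all genes tested. Hsd11b1, the enzyme that regenerates active corticosterone, had 60, 101 and 146 CPM in the lowest, median and highest Ad-sham aorta and 43.5, 68.5 and 87.1 CPM in Ad-FAM3A. All 7 Ad-FAM3A aortas lay below the Ad-sham median, within a range that overlapped (log2FC -0.66, SE 0.24, edgeR's quasi-likelihood test, adjusted p = 0.810). Hsd11b1 moved with the fat markers, with a within-group r of 0.88 with their log2 sum. The 3 Ad-sham aortas highest in Hsd11b1, at 125 to 146 CPM, had adipocyte sums of 6644 to 9467 CPM, and the other 3 had 3152 to 3923 CPM. With the adipocyte score as a covariate its log2FC was -0.31 (SE 0.14). Its r with Rasd1 within the groups was -0.02.

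Hsp90aa1, the inducible form of the HSP90 chaperone that holds the receptor, had medians of 477 CPM in Ad-sham and 684 CPM in Ad-FAM3A and exceeded the Ad-sham median in 7 of 7 Ad-FAM3A aortas (log2FC 0.73, SE 0.31, edgeR's quasi-likelihood test, adjusted p = 0.810). Without Ad-FAM3A5 its log2FC was 0.46. The mineralocorticoid receptor gene Nr3c2, whose product also binds corticosterone, had medians of 16.3 and 11.5 CPM and a log2FC of -0.42 (SE 0.20). Fkbp4, the co-chaperone that acts opposite to Fkbp5, had a log2FC of -0.03 (SE 0.23).

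Several of the members answer to other signals as well, and genes of those signals were listed for comparison. Of 16 clock genes, 5 had estimates above 0 and 11 below, and Per2, the close relative of Per1, was at 0.29. The estimate of Dbp (-1.56) was among those lower at an unadjusted p under 0.05, but it rested on Ad-sham5, at 33.0 CPM against 1.72 to 9.90 CPM in the other 5 Ad-sham and 0.515 to 5.32 CPM in the Ad-FAM3A aortas. Without Ad-sham5 it was -0.60 and no longer past that threshold. Of 13 immediate-early genes, 3 were above 0 and 10 below, with a median log2FC of -0.44. Among them Junb, with 29.1, 112 and 168 CPM in the lowest, median and highest Ad-sham aorta and 29.2, 55.5 and 72.7 CPM in Ad-FAM3A, was lower at an unadjusted p under 0.05 (log2FC -1.12, adjusted p = 0.810 by edgeR's quasi-likelihood test). Egr1 was at -0.95. With 1 aorta left out, Junb stayed past that threshold in 13 of 13 fits and Egr1 in 7 of 13, and over all genes 2.93% were lower at it. The r of Junb with Rasd1 within the groups was 0.29 and that of Egr1 0.12. The 12 tested genes of hypoxia and amino acid stress, signals that also raise Ddit4, had a median of -0.23 with 3 above 0 and 9 below, and the 4 genes of the metal response, which also raises Mt2, had estimates from 0.06 to 0.43. None of these genes was called after adjustment.

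Of 9 tested genes for the relative and the reported protein partners of Rasd1, 5 had estimates above 0 and 4 below, from -0.40 to 0.27, and 0 were called at an adjusted or an unadjusted p under 0.05. Rasd2, the closest relative, had means of 3.08 and 2.38 CPM in Ad-sham and Ad-FAM3A (log2FC -0.37, SE 0.32). Acbd3, a Golgi protein that binds the RASD proteins, was at 0.20 (SE 0.14). Nos1, the neuronal nitric oxide synthase, was at -0.33 (SE 0.58).

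The 3 nearest tested genes on each side of Rasd1 on chromosome 11 were Cops3, Nt5m and Med9, and Pemt, Rai1 and Srebf1. Med9, a Mediator subunit gene that ends 976 bases away on the opposite strand, had means of 27.2 ± 8.56 and 23.6 ± 8.40 CPM (SD, n = 6 and 7), and its log2FC was -0.21 (SE 0.26). The estimates of the 6 neighbours lay between -0.60 (Srebf1, a regulator of lipid synthesis) and -0.12, and none was called. Their r with Rasd1 within the groups lay between -0.39 and 0.37.

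Among 14974 genes with a mean of at least 1 CPM, those whose centred values were most like Rasd1 over the 13 aortas were Gm6136, a processed pseudogene (r = 0.91), Creld2, a gene of the endoplasmic reticulum stress response (0.90), Zscan20 and Mkrn1 (both 0.88), and Rps10-ps2, another processed pseudogene (0.87). None of these is among the listed glucocorticoid targets. Counts of processed pseudogenes are uncertain, since they share sequence with their parent genes. The lowest were Dixdc1 (-0.83), Acsl3 (-0.81), 4930402H24Rik and Lonrf3 (both -0.80) and Msmo1 (-0.80). These extremes out of many genes are a description. Between the groups, the 5 genes most like Rasd1 had estimates from 0.15 to 0.59, opposite in sign to Rasd1.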

How the data were processed

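RNA of 13 aortas, 6 Ad-sham and 7 Ad-FAM3A, was sequenced. The authors aligned reads to GRCm38 with Hisat2, and deposited whole-number counts per Ensembl gene from FeatureCounts, without normalization. Group means in FPKM were deposited as well. Annotation release and strand setting are not given in the sources used here, and the labels and the paper name different library kits.

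Samples were matched to columns by their labels (0 unmapped). In R 4.3.3 with edgeR 4.0.16, counts were kept by filterByExpr, normalized by TMM and tested by the quasi-likelihood test, and p-values were adjusted over all genes (Benjamini-Hochberg). The SE was taken as |log2FC| over the root of F. The slope was fitted on centred Rasd1 with group in the model. Log2 CPM used a prior count of 2, and permutation tests were two-sided, exact or with 100000 resamples. Nothing states the mice's litters or batches. CPM of single genes are on the TMM scale, and marker sums use library totals. Both tests were tried on simulated data. DESeq2 1.42.0, limma 3.58.1, other scalings, filters and covariates, and leaving out each aorta were alternatives.

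The members and all gene lists were chosen with earlier results of these data known. Named genes were the members, listed and marker genes, the 5 most and 5 least like Rasd1, and its 3 nearest neighbours on each side. A result is not reported here.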

Additional observations from a re-analysis of the deposited data

Results flagged for a closer look

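Within the group of 7 Ad-FAM3A aortas, Ad-FAM3A7 stood apart for 2 members. Its Tsc22d3 level was 6.40 on the log2 CPM scale, below the other 6 at 7.35 to 7.91, and its Sgk1 level was 6.55, below the other 6 at 7.09 to 7.43. The gap of the lowest aorta, as a share of the group's range, was above Dixon's critical value for 7 samples in both. These were 2 of 22 groups examined, and chance gives about 1 in 20. Markers of B cells were high in Ad-FAM3A7 (3405 CPM) and in Ad-FAM3A6 (11390 CPM), against 24.4 to 160 CPM in the other 11. Ad-FAM3A7 also had the highest sum of adrenal cortex markers, 8.37 CPM against 5.05 to 7.60 CPM in the other 12. The part of these lists in the values was not tested.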

How the results depend on the processing

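The number of genes called was 0 for the groups and 0 for the slope on Rasd1 under every setting other than these: DESeq2 called 3 genes between the groups, namely Ighg2c, Ighg2b and Rasd1, whose call counts for nothing because Rasd1 was chosen for this difference, and 4 for the slope (Rps10-ps2, Gm6136, Creld2 and Rpl37rt), and the adipocyte score as a covariate gave 1 call for the slope (Gm6136). The names outside the members were chosen after their values were seen. Leaving out each aorta in turn gave 0 to 0 calls in both. The signs of the fold changes and r of Fkbp5 and Zbtb16 and of the fold change of Tsc22d3 held in all settings run. With 1 aorta left out, the log2 fold change ran from 0.62 to 0.997 for Fkbp5, 0.80 to 1.28 for Zbtb16, 0.28 to 0.63 for Tsc22d3, 0.0085 to 0.23 for Klf9, -0.0014 to 0.31 for Per1, -0.059 to 0.28 for Sgk1, -0.45 to 0.30 for Ddit4, -0.15 to 0.030 for Nr3c1 and -0.27 to 0.51 for Mt2, and the r with Rasd1 from -0.25 to 0.18 for Per1, -0.29 to 0.083 for Tsc22d3, -0.062 to 0.15 for Sgk1, -0.014 to 0.46 for Klf9, 0.073 to 0.44 for Ddit4 and -0.27 to 0.47 for Mt2. The r of Nr3c1 with Rasd1 ran from -0.37 to -0.074 with 1 aorta left out. Other reversals are given next, and their cause was not tested. The log2 fold change became -0.033 (Sgk1) and -0.017 (Klf9) with the adipocyte score, -0.051 (Klf9) and -0.21 (Mt2) with the smooth muscle score, and 0.072 (Ddit4) with the sympathetic neuron score. The r with Rasd1 became -0.013 (Sgk1) with the smooth muscle score, -0.39 (Sgk1) and -0.14 (Klf9) with the sympathetic neuron score, -0.00040 (Sgk1) with library totals, 0.011 (Tsc22d3) by Spearman's rho, and 0.21 (Per1) and 0.19 (Tsc22d3) without the 2 farthest aortas.

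The replicate numbers showed no clear pairing of the aortas. Same-numbered aortas had correlations of their deviations from -0.33 to 0.45, and 1 of 6 in each group correlated best with its own number. Shared litters or batches, which nothing states, were not tested. A replicate block over 12 aortas gave 0 calls in both tests, a log2 fold change of 0.14 for Ddit4 and 0.80 for Tsc22d3, and an r with Rasd1 of 0.13 for Per1, 0.40 for Tsc22d3, -0.40 for Sgk1, -0.20 for Klf9 and 0.0053 for Nr3c1, and it moved that of Mt2 from -0.10 to -0.53. The largest departure among the fold changes of Mt2 was 0.86, with limma-voom. A filter of at least 10 counts in every aorta removed Mt2, and a covariate for sex was not run, since Xist was at most 6 counts in every aorta. Other scalings shifted the median log2 fold change of all genes by at most 0.02. At this depth Mt2, with 1 to 435 counts, was the member limited most by counting.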
